A study of Mus musculus with 7 samples.

Results

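The 10 Notch pathway genes described here were followed through ATAC-seq peak lists of mouse cortical progenitors: the receptors Notch1 and Notch2, the ligands Dll1 and Jag1, the nuclear factors Rbpj, Maml1, Maml2 and Maml3, and the effectors Hes1 and Hes5. They were named from the pathway with earlier results of these data known, and are 10 of 21887 protein-coding genes in the annotation used. For each gene the locus was taken as the gene span with 50 kb added at each end on mouse build GRCm38, and the peaks of each library that touched it were counted. ATAC-seq marks open chromatin, where a transposase can insert sequencing adapters. The cells were neural progenitor cells sorted by CD15 from dorsal telencephalon, of strain CD-1, at E14.5, the embryonic day, during cortical neurogenesis. CD15 is a surface carbohydrate of neural stem and progenitor cells. There were 3 wild-type libraries, called control in the design text, and 4 libraries of genotype L3mbtl3 -/-, which lack a PRC1-interacting protein by the series title. How the allele was made, the sex of the embryos and the number of embryos behind a library are not stated, so p-values measure only the spread between these libraries.

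Notch signalling passes between neighbouring cells. A Delta or Jagged ligand on one cell binds a Notch receptor on the next, the receptor is cut, and its intracellular part enters the nucleus, where it joins the DNA-binding protein RBPJ and a Mastermind-like (MAML) coactivator. In the developing cortex this complex switches on Hes genes, whose repressor proteins hold down proneural genes and keep radial glia as progenitors.

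List length varied widely, from 3366 peaks in knockout library 3 to 17362 in knockout library 4, with 7448, 11394 and 6458 in wild-type libraries 1 to 3 and 9827 and 7111 in knockout libraries 1 and 2. The files give no read counts, so the depth is unknown, and the shortest and the longest list are both knockout libraries. Knockout library 4 called a peak in 59.98% of all gene loci and knockout library 3 in 17.2%. In these bulk libraries a locus open in fewer cells and a locus less open in every cell cannot be told apart. At L3mbtl3 itself 1 wild-type and 1 knockout library had a single peak in the locus, which does not test the deletion. Marker loci of dorsal progenitors (Pax6, Emx2, Sox9, Gli3 and 8 others) had a peak in at least 1 library at 12 of 12 genes, against 69.2% of all genes. Neuron markers had one at 5 of 5 genes, ventral telencephalon markers at 4 of 7, intermediate progenitor markers at 1 of 2 and meningeal markers at 2 of 4. The 12 of 12 therefore does not set dorsal progenitors apart. Their summed counts were 12 to 20 in wild-type, 9 to 16 in knockout libraries 1 to 3 and 40 in knockout library 4. Endothelial marker loci summed to 0 or 1 peak in wild-type, 0 in knockout libraries 1 to 3 and 8 in knockout library 4, where all 6 genes (Pecam1, Cdh5, Kdr, Tie1, Tek and Cldn5) had a peak. Its part in the counts of that library was not tested. Microglial and blood marker loci summed to 2 or 3, to 0 or 1 and to 4 in the same order, and no library had a peak at an end of any endothelial, microglial or blood marker gene.

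Peaks reached the listed promoter of 3 members, Maml1, Jag1 and Hes5, and these windows are shown because they are the places where a called peak and a Notch gene's start met. RefSeq promoter windows (250 bases before to 50 after a start, GRCm38.p6) were listed for 9 of the 10 members. Hes1 is not in that table. A peak in at least 1 library reached 3 of the 12 listed member windows, against 19.7% of all windows. Maml1 (chr11:50292287-50292586, minus strand) has in capitals the 96 bases, 184 to 89 bases before the start, that lay under the peaks of at least 4 libraries:
Maml1: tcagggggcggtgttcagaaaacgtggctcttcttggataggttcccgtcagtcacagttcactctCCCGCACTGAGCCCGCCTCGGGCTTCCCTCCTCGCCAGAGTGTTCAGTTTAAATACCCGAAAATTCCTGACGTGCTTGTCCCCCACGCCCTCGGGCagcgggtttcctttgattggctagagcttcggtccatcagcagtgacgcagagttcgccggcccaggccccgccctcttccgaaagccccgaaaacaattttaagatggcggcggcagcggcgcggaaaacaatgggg
Jag1 (chr2:137116471-137116770, minus strand) lay whole under a peak of 1 library and has its proneural E-box letters in capitals:
Jag1: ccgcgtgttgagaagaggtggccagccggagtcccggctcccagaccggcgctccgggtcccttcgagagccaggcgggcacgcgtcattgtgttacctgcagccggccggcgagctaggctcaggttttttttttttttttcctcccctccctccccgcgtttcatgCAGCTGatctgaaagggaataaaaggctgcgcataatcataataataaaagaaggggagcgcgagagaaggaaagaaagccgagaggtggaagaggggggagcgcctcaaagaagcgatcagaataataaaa
Hes5 (chr4:154960673-154960972, plus strand) has the letters of the RBPJ motif in capitals, and the peak of 1 library covered only its last 25 bases:
Hes5: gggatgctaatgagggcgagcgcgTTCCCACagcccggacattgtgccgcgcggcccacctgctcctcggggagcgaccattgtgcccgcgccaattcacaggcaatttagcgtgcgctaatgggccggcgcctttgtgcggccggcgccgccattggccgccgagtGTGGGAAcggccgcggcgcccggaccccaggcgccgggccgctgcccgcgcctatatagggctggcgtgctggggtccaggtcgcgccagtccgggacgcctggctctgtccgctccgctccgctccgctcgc

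The motifs of the RBPJ complex, of proneural factors and of HES proteins were searched on both strands of the 12 listed member promoters and of all 21263 promoters of protein-coding genes. The RBPJ letters GTGGGAA occurred in 6.07% of all promoters and, among the members, at Hes5 only, with a match on each strand at 226 and 83 bases before the start. At least 2 matches occurred in 0.259% of all promoters. The E-box CAGCTG, read alike on both strands, occurred in 15.6% of all promoters and at Dll1, Jag1 and Maml3. The N-box CACNAG, which HES proteins can bind, occurred in 41.9% of all promoters and at Notch1, Notch2, Dll1 and Maml2. On Notch1 a pair of N-box matches on opposite strands overlapped each other. Of these matches, only the Jag1 E-box lay under a peak, and a match of letters is a description of the window.

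Summed over the 10 loci, the wild-type libraries had 14, 17 and 10 peaks and the knockout libraries 10, 8, 8 and 34. Knockout library 4 stood far above the rest, and the other 3 knockout libraries lay at or below the lowest wild-type library. The means were 13.7 ± 3.51 in wild-type (SD, n = 3) and 15 ± 12.7 in knockout (SD, n = 4), which differ by 1.33 peaks, less than either SD. Without knockout library 4 the knockout mean was 8.67 ± 1.15 (SD, n = 3) and the difference −5 peaks, and without wild-type library 3 it was −0.5. Per 1000 peaks of the list, the loci held 1.88, 1.49 and 1.55 peaks in wild-type and 1.02, 1.13, 2.38 and 1.96 in knockout libraries. On that scale the genotypes overlapped, at 1.64 ± 0.209 and 1.62 ± 0.657 (SD, n = 3 and 4). The knockout libraries were on both sides of the wild-type ones.

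**Figure D1:**
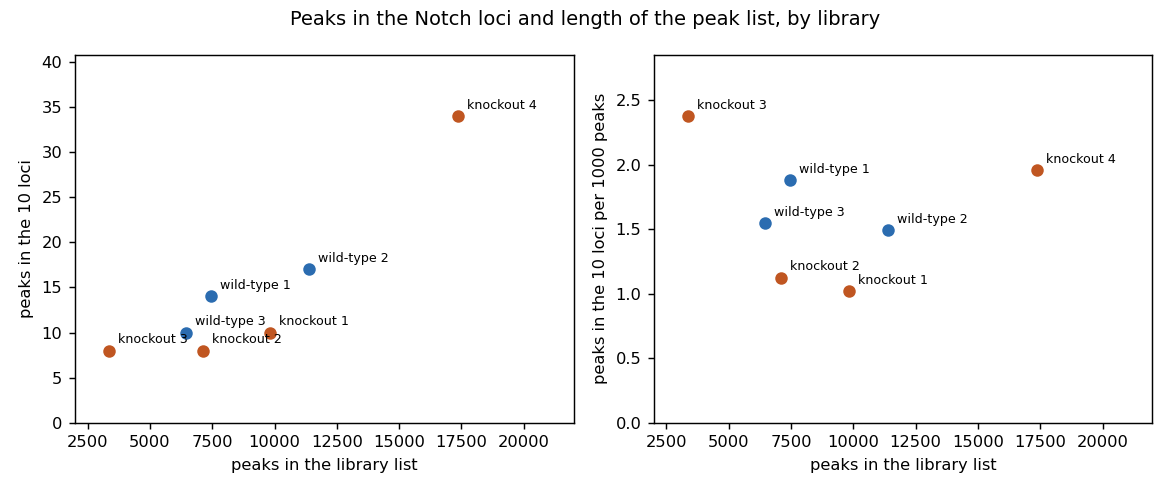
Peaks in the 10 Notch loci (left) and the same per 1000 peaks of the list (right) against the number of peaks in each library's list, 1 point per library, wild-type in blue and knockout in orange. The count is highest in knockout library 4, with 34 peaks and the longest list, while per 1000 peaks the shortest list, knockout library 3, is highest at 2.38.

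The loci differed widely in their number of peaks. Over the 7 libraries the Maml2 locus held 34 of the 101 peaks and Hes1 none. The median member had 9 peaks, against 2 for all protein-coding genes. Per 100 kb of locus and library the median was 0.645 peaks in the members and 0.209 over all genes. The highest density was 1.14 at Maml1, followed by Jag1 at 1.06 and Dll1 at 1.04, and the long Maml3 locus had 0.303. Gene spans held 73 of the 101 peaks at 0.868 per 100 kb and library, and the flanks 28 peaks at 0.400. The Maml2 span alone held 32 of the 73. The same split over all genes is not given here, so it does not mark the Notch loci off from others. At least 1 library had a peak at 9 of the 10 loci, against 69.2% of all genes, and all 7 libraries had one at 2 loci, Notch2 and Maml2, against 6.9%. Since the members were chosen with earlier results known, these are descriptions.

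**Figure D2:**
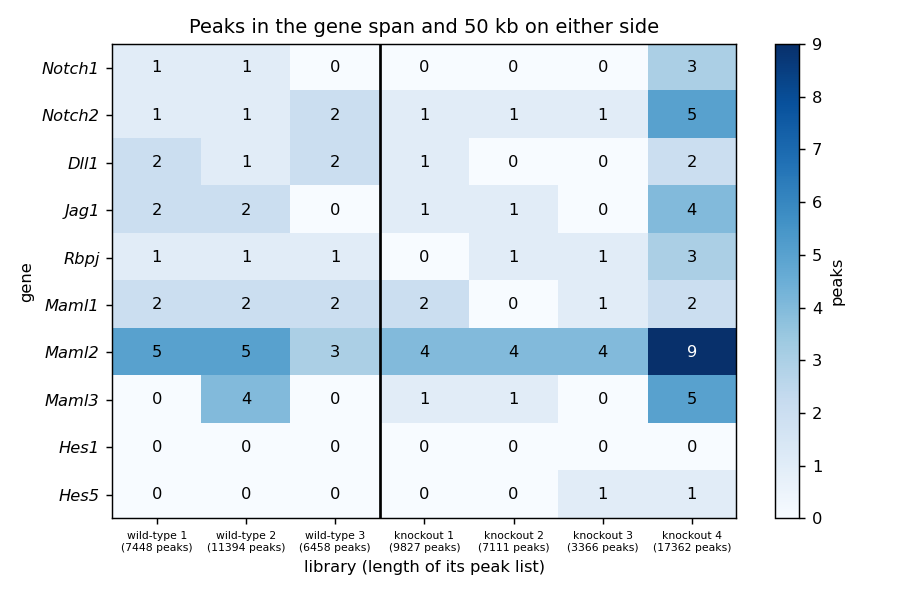
Number of peaks in each locus (rows) and library (columns, with list length), wild-type left and knockout right of the black line, with darker blue for more peaks. Maml2 is the fullest row with 3 to 9 peaks per library, Hes1 is empty, and knockout library 4 has the highest count, alone or tied, at all 9 loci with a peak.

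No member locus passed the test between genotypes. Of the 9 loci with a peak, 0 had an exact permutation p under 0.05, where 0.119% of 15153 genes passed with more peaks in knockout and 0.211% with more in wild-type. No gene passed with Benjamini-Hochberg adjustment. The smallest p that 3 against 4 libraries allow is 0.0286, so an adjusted p under 0.05 would need most tested genes at that p. The adjusted test therefore says little here. Hes5, with 2 peaks, could not reach an unadjusted p under 0.05 in any arrangement. A p above the threshold does not show that the counts were alike. Per 1000 peaks of the list, 0 of the 9 loci passed either, with exact permutation p from 0.114 at Dll1 to 0.914, where 0.152% of genes passed with higher values in knockout and 0.739% in wild-type. Mean peaks were higher in knockout at 7 of the 9 loci and in wild-type at Dll1 and Maml1, against 58.6% and 37.8% of all genes tested. The median difference was 0.25 peaks in the members and 0.167 over all genes tested. Without knockout library 4 the sign turned at Notch1, Notch2, Jag1, Rbpj, Maml2 and Maml3, and of the loci higher in knockout only Hes5 kept it.

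Notch1, a receptor that keeps radial glia undifferentiated, had 1, 1 and 0 peaks in wild-type and 0, 0, 0 and 3 in knockout libraries (chromosome 2, 26457902 to 26503822). Only 1 of its 3 regions was recurrent, meaning called in 2 or more libraries after overlapping peaks were merged. That region (chr2:26485602-26485958) lay 18.0 kb inside the gene from its start and was called in wild-type libraries 1 and 2 and knockout library 4. No library called either end of Notch1 within 1 kb.

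Notch2, its paralogue in the same progenitors, had 1, 1 and 2 peaks in wild-type and 1, 1, 1 and 5 in knockout libraries (chromosome 3, 98013538 to 98150367). All 12 peaks lay inside the gene. A single intragenic region (chr3:98043080-98043464), 29.7 kb from the start, was called in all 7 libraries, and the peaks shared 199 bases. The nearest listed start was that of another gene, Gm40103, 16972 bp away. Its −log10 q stood at the 72.0, 59.4 and 82.2 percentile of the wild-type lists and at the 59.0, 37.2, 88.1 and 82.6 percentile of the knockout lists. It ranked above the middle of every list but that of knockout library 2, and the genotypes overlapped. The authors' fold enrichment there ran from 4.66 to 5.74.

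Dll1, a ligand that nascent neurons and committed progenitors present to their neighbours, had 2, 1 and 2 peaks in wild-type and 1, 0, 0 and 2 in knockout libraries (chromosome 17, 15367354 to 15376932). The means were 1.67 ± 0.577 and 0.75 ± 0.957 (SD, n = 3 and 4), a difference of −0.917 (exact permutation p = 0.257, adjusted p = 1). The counts of both genotypes overlapped. With equal lists, the best-ranked 3366 peaks of each, the difference was 0.25 and rested on the 1 peak left, in knockout library 1. With flanks of 100 kb it was −0.417. None of the 8 peaks lay in the gene. Of its 2 regions, the one beyond the 3′ end (chr17:15323211-15323627), 43.7 kb outside the gene, was called in 3 of 3 wild-type libraries and in knockout library 4 only. That was the largest difference of shares among the members' regions (Fisher's exact test p = 0.143, adjusted p = 1), and the peaks shared 88 bases. Its percentile of −log10 q was 21.4, 34.9 and 31.8 in wild-type and 34.4 in knockout library 4, so it ranked low wherever it was called. Without knockout library 4 it was the only member region called in every wild-type and no knockout library, for which 3 against 3 libraries give no p below 0.1. The other region (chr17:15395972-15396222), 19.2 kb before Dll1, was called in 2 of 3 and 2 of 4 libraries. It overlapped the start of the neighbouring gene Fam120b, so that it may belong to that gene.

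Jag1, the other ligand, had 2, 2 and 0 peaks in wild-type and 1, 1, 0 and 4 in knockout libraries (chromosome 2, 137081451 to 137116520). An intragenic region (chr2:137092543-137093208) was called in 2 of 3 and 2 of 4 libraries, although the peaks of all callers had no base in common. A region 36.9 kb before the gene (chr2:137153104-137153648) was called in 1 of 3 and 2 of 4. The promoter printed above was called in knockout library 4 only, by a peak from 137116408 to 137116806.

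Rbpj, the DNA-binding partner through which Notch acts, had 1, 1 and 1 peaks in wild-type and 0, 1, 1 and 3 in knockout libraries (chromosome 5, 53555779 to 53657445). A region 32.5 kb before the gene span (chr5:53523133-53523365) was called in 3 of 3 wild-type libraries and in knockout libraries 2 and 4 (Fisher's exact test p = 0.429). It was among the better-ranked regions, at the 85.7, 65.0 and 81.9 percentile of the wild-type lists and the 63.6 and 92.0 percentile of the knockout lists. A region 0.824 kb before the nearer of the listed starts, inside the annotated span (chr5:53589009-53589522), was called in 0 of 3 wild-type libraries but 2 of 4 knockout ones (Fisher's exact test p = 0.429). Its callers, knockout libraries 3 and 4, shared 18 bases there.

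**Figure D3:**
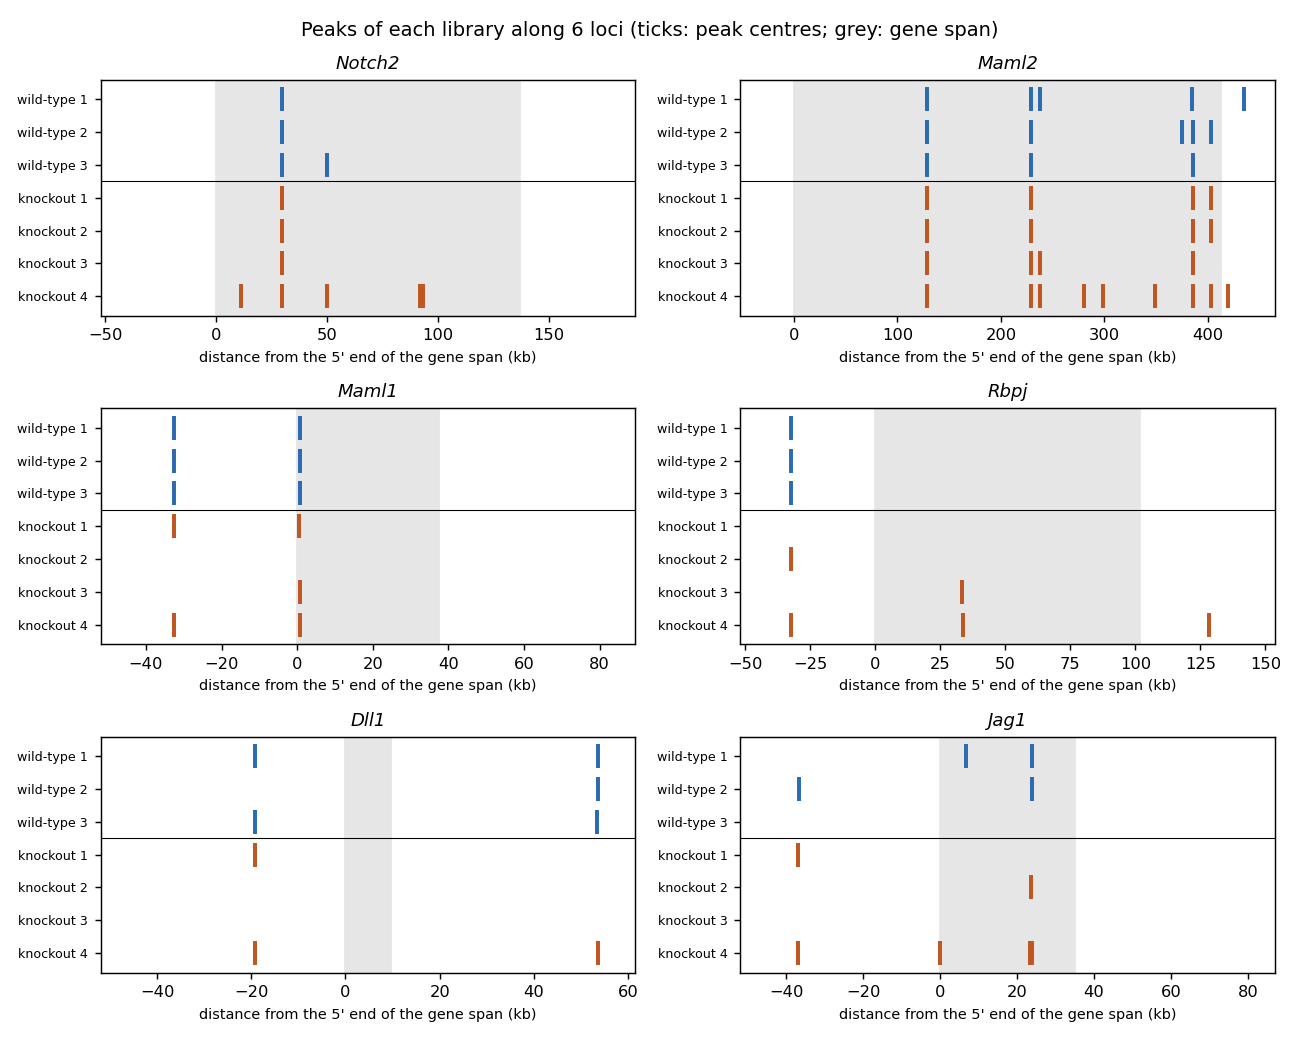
Positions of peak centres (ticks) along 6 loci, as distance in kb from the 5′ end of the gene span (grey), 1 row per library, wild-type in blue above the line and knockout in orange below. Columns of ticks through all 7 rows stand once in Notch2, at 29.7 kb, and 3 times in Maml2, at 129, 229 and 385 kb, and the Dll1 gene itself holds none.

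Maml1, a coactivator that binds the Notch and RBPJ complex, was the only member with a called peak at its start in most libraries. An uncalled start is not shown to be closed. It had 2 peaks in each wild-type library and 2, 0, 1 and 2 in knockout libraries (chromosome 11, 50255634 to 50293131). The difference was −0.75 peaks (exact permutation p = 0.429, adjusted p = 1), with knockout library 2 lowest and knockout libraries 1 and 4 level with wild-type. Without knockout library 2 it was −0.333, with equal lists −0.0833 and with flanks of 10 kb −0.25. The promoter region (chr11:50292366-50292693) was called in all 3 wild-type libraries and in knockout libraries 1, 3 and 4. Its peaks were short and of low to middling rank, from the 14.3 to the 70.4 percentile, and the 6 peaks had 1 base in common, because that of knockout library 1 lay farther upstream of the listed start than the rest. A peak in 6 or more libraries was found on 2.25% of all promoter windows. The remaining Maml1 region (chr11:50325646-50325851) was called in 3 of 3 and 2 of 4 libraries (Fisher's exact test p = 0.429). It lay 32.6 kb before Maml1 at the start of Canx, the gene of the chaperone calnexin, and so may belong to Canx.

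Maml2, a second coactivator in a gene of 412973 bp, had the most peaks of the members: 5, 5 and 3 in wild-type and 4, 4, 4 and 9 in knockout libraries (chromosome 9, 13296561 to 13709533). The means were 4.33 ± 1.15 and 5.25 ± 2.5 (SD, n = 3 and 4, exact permutation p = 0.829, adjusted p = 1). Leaving out knockout library 4 turned the difference to −0.333, and the other knockout libraries lay within the wild-type range. Of 11 regions, 3 were called in every library, and all 3 lay deep inside the gene.

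The first of these Maml2 regions (chr9:13425127-13425716) lay 129 kb from the 5′ end of the span and 5645 bp from the listed start of another gene, Phxr4. Merging joined peaks there that did not all overlap, since the peak of knockout library 3 began after that of knockout library 2 had ended. The second (chr9:13525268-13525775) lay at 229 kb, and its 7 peaks shared 90 bases. The third (chr9:13681656-13682003) lay at 385 kb, 19.2 kb beyond the second listed start, and its peaks shared 142 bases. It held the highest fold enrichment of all member peaks, 8.14 in knockout library 4, and 3 of the 4 member peaks with a −log10 q of at least 5. Its percentile was 82.9, 88.3 and 33.1 in wild-type and 85.6, 28.6, 96.3 and 98.8 in knockout lists, low in 1 library of each genotype and high in the others. Another Maml2 region (chr9:13699549-13699746), at 403 kb, was called in 3 of 4 knockout libraries but 1 of 3 wild-type ones (Fisher's exact test p = 0.486). It was not called in wild-type libraries 1 and 3 or in knockout library 3.

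Maml3, of nearly the same length at 418000 bp, had 0, 4 and 0 peaks in wild-type and 1, 1, 0 and 5 in knockout libraries (chromosome 3, 51687320 to 52105319). Its counts followed the longest lists, wild-type library 2 and knockout library 4, which held 9 of its 11 peaks. Of its 8 regions 2 were recurrent, both intragenic, and none was called in more than 3 libraries. The region at 59.0 kb (chr3:52046144-52046501) had calls in 1 of 3 wild-type and 2 of 4 knockout lists. That at 215 kb (chr3:51889840-51890196) had calls in 1 of 3 and 1 of 4.

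Of the effectors, Hes1 had no peak, and Hes5 had 2 over the 7 libraries, as many as the median of all genes. Hes1, the main repressor of proneural genes downstream of Notch, had 0 peaks in all 7 libraries in its locus (chromosome 16, 30065357 to 30067796), as 30.8% of all genes did. Hes5, which acts beside Hes1 in radial glia, had 0, 0 and 0 in wild-type and 0, 0, 1 and 1 in knockout libraries (chromosome 4, 154960626 to 154962372; exact permutation p = 0.429, adjusted p = 1). The peak of knockout library 3 (chr4:154960948-154961056) reached the printed promoter beyond the start and covered neither RBPJ match. The peak of knockout library 4 lay 12.1 kb before the gene. Without read counts an empty locus shows only that no peak passed the authors' threshold there.

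Merging gave 40 regions in the 10 loci, of which 18 (45%) were called in 2 or more libraries, against 51.6% of 25623 regions genome-wide, and 4 (10%) in all 7, against 5.06%. Of the 22 regions of a single library, 15 came from knockout library 4, which supplied 6474 of the 12396 such regions genome-wide. It called all 18 recurrent regions, against 82.2% of the recurrent regions genome-wide. Knockout library 3, with the shortest list, called 7 of the 18, against 23.2% genome-wide.

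Of the 18 recurrent regions 13 lay inside a gene span, 13 lay more than 10 kb from every listed start, and 2 lay within 1 kb of an end or start of a member. For 8 of the 18 the nearest listed start was that of another gene. These placements were not counted over all recurrent regions, so they do not mark the Notch loci off from others. The share of libraries calling a region was higher in wild-type for 9 (50%), higher in knockout for 5 (27.8%) and equal for 4 (22.2%), against 49.9%, 40.3% and 9.8% of all recurrent regions. With 3 against 4 libraries, shares can be equal only where every library calls the region. A region called in the same number of libraries of both genotypes counts as higher in wild-type, so these shares do not measure a lean to wild-type. None of the 40 separated the genotypes fully, where 0.133% of all regions had a call in all 3 wild-type lists but no knockout list, and 0.109% had the reverse. Fisher's exact test adds nothing to this, since with 3 against 4 libraries only full separation gives an unadjusted p under 0.05. It gave such a p for 0 of the 40. Member peaks had a median fold enrichment of 4.51 against 4.59 over all peaks and a median percentile of 44.3. The 79 peaks of recurrent regions had a median percentile of 48.4 and the 22 peaks of single-library regions 32.1. Only 4 of the 101 (3.96%) reached a −log10 q of 5, against 9.98% of all peaks.

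**Figure D4:**
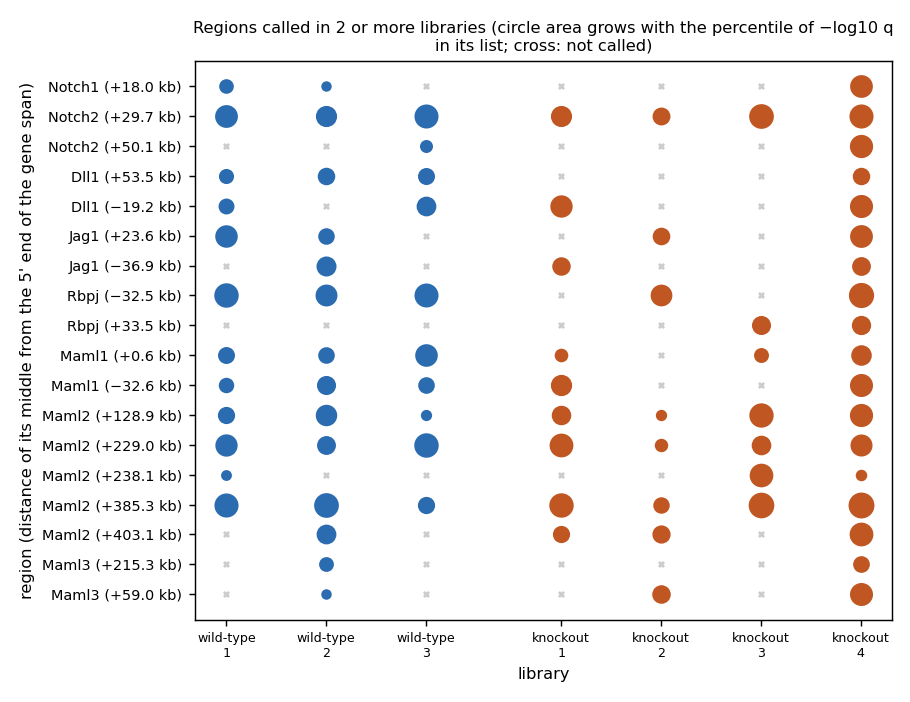
The 18 regions called in 2 or more libraries (rows, with the distance of their middle from the 5′ end of the gene span) across the 7 libraries, as circles whose area grows with the percentile of −log10 q in the list, and crosses where not called. Rows filled in all 7 columns are 1 in Notch2 and 3 in Maml2, and the column of knockout library 4 is filled throughout.

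Gene ends were called where a peak lay no more than 1 kb from an edge of the span or from a listed start. Each wild-type library called 1 member and the knockout libraries called 1, 0, 3 and 3. The means were 1 ± 0 and 1.75 ± 1.5 (SD, n = 3 and 4). Maml1 was the member called in all wild-type libraries and in knockout library 1. Knockout library 3 called Rbpj, Maml1 and Hes5, and knockout library 4 called Jag1, Rbpj and Maml1. At least 1 library called 4 of the 10 members, against 25.8% of all genes. The share of all genes called at an end was 8.14%, 12.3% and 7.21% in wild-type and 9.67%, 6.69%, 3.84% and 19.7% in knockout libraries, so that knockout library 3 called 3 members although it called the fewest genes. Without knockout library 3 or 4 the difference between genotypes was 0.333 genes instead of 0.75.

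For the rest of the pathway, 44 further genes, the median was 2 peaks per locus over the 7 libraries, as for all genes. A peak in at least 1 library was found at 35 of the 44 loci (79.5%), against 69.2% of all genes, and at an end of 14 genes (31.8%), against 25.8%. Exact permutation p was under 0.05 for 0 genes in either direction. Of the 35 loci, mean counts were higher in knockout at 23 (65.7%), higher in wild-type at 10 (28.6%) and equal at 2, against 58.6% and 37.8% of all genes tested. Summed counts were 14 to 27 in wild-type and 9 to 16 in knockout libraries, with 50 in knockout library 4. Kat2b, which encodes a histone acetyltransferase recruited by the Notch complex, had the most peaks. Its means were 4 ± 1.73 for wild-type against 2 ± 1.41 for knockout (SD, n = 3 and 4, exact permutation p = 0.2, adjusted p = 1). It was followed by Adam17, a sheddase gene, with 11 peaks in all, by the γ-secretase gene Psen2 and the ubiquitin ligase gene Fbxw7 with 9 each, and by Mib1, whose product activates ligands, with 8. The loci of the receptor gene Notch3 and the ligand gene Jag2 were among the 9 without a peak in any library.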

How the data were processed

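Each of the 7 ATAC-seq libraries had 1 list of broad peaks, called by the authors per library. Per the submitters' processing notes the build was GRCm38 and the tools named MACS2, Bowtie2 2.3.5.1, deepTools 3.3.0, SAMtools 1.9, FastQC 0.11.8 and CASAVA 1.9. Settings and any transposase shift are not stated there. The deposited values per peak are a fold enrichment (a ratio over background), a −log10 p and −log10 q, and a score, which was not used. A list holds what passed its own threshold, so its length limits which loci can be called, and depth is unknown.

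Coordinates count from 1. Genes (RefSeq GRCm38.p6, no exons) and starts came from reference tables. Peaks overlapping by 1 bp were merged into regions. Peaks per locus were compared for all genes with two-sided exact permutation tests over 35 splits, regions with Fisher's exact test (SciPy 1.17.1), both adjusted by Benjamini-Hochberg. The code was tested on simulated data, in which only loci with many peaks were raised, and strongly so. There the raw-count test recovered few raised loci at the real list lengths and most at equal lengths. Of the members only Maml2 had as many peaks, so the power at the other member loci was not measured. No 2 lists shared more than 0.325% of intervals with the same start and end, so none was a copy of another list. Whether a library or animal was repeated was not tested. Samples were grouped by title.

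The members and lists were chosen with earlier results of these data known. Named regions were those called in 4 or more libraries or with the 5 largest differences of shares; ties were kept, and others were named after their values were seen. Alternatives were flanks of 10 and 100 kb, windows of 2.5 kb at ends, −log10 q of at least 5, equal lists, counts per 1000 peaks, merging within 500 bp, coverage of 50% of a region, a replicate block and leaving out each library.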

Additional observations from a re-analysis of the deposited data

Results flagged for a closer look

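Knockout library 4 lay apart from the other 3 knockout libraries in 4 of the 12 values examined for a single distant library by Dixon's criterion. Its usual rate of about 1 in 20 groups by chance does not hold for small counts with ties. Where 3 libraries are tied, any other value of the remaining library is flagged, as at the single loci here. The summed count contains those loci, so the 4 flags are not independent. Its counts were 3 peaks at the Notch1 locus, where the others had 0, 5 at Notch2, where the others had 1 each, 9 at Maml2, where the others had 4 each, and 34 over the 10 loci, where the others had 10, 8 and 8. Its list was the longest, at 17362 peaks, and per 1000 peaks of the list its summed count was 1.96, within the range of the other knockout libraries.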

How the results depend on the processing

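No member locus passed the exact permutation test under any alternative run, where the smallest p was 0.114. The fits without 1 library and the replicate block could not give a p under 0.05, so they say nothing about stability. With equal lists and at a −log10 q of at least 5, most loci held only 0 to 2 peaks over the 7 libraries. So few peaks cannot give a p under 0.05 either, however they fall. The direction of the small differences (knockout minus wild-type peaks) was not stable: 23 of 130 recomputed values had the opposite sign. Among these, the sign changes of the replicate block repeat those without knockout library 4. The values of Hes1, with no peak in its locus, could not turn. Values of exactly 0 at other loci, such as Maml3 and Notch1 with equal lists, have no sign and were counted as not turned. With equal lists the turned values were Dll1 at 0.25 and Jag1 at −0.333, each from 1 remaining peak, and Notch2 at −0.167. Per 1000 peaks of the list they were Jag1 at −0.0298 and Notch1 at −0.0308, and with flanks of 10 kb Maml3 at −0.0833 and Notch1 at −0.167. Leaving out single libraries gave −0.667 to 0.667 for Jag1, −1 to −0.333 for Maml1, −0.333 to 1.33 for Maml2, −0.667 to 1.75 for Maml3, −0.667 to 0.333 for Notch1, −0.333 to 1 for Notch2 and −0.333 to 0.667 for Rbpj. The lowest value was each time the one without knockout library 4, tied at Maml1 with that without knockout library 1.

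A replicate block, pairing libraries of the same number, uses numbers 1 to 3. It so drops knockout library 4 and gives the same differences as leaving that library out. It gave −5 for the summed peaks, −0.667 for Jag1, Maml3 and Notch1, and −0.333 for Maml2, Notch2 and Rbpj, with 0.25 as its smallest possible p. Same-numbered libraries had correlations of −0.0258, 0.0614 and 0.0604 in their deviations from the genotype means, so the numbers were not taken to pair them.

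Recurrent regions numbered 18, but 5 with equal lists and 1 at a −log10 q of at least 5; both settings hold fewer peaks by construction. Leaving out single libraries gave 15 to 18 of them, and 0 to 1 regions with a call in each wild-type list but no knockout list, the 1 being the Dll1 region without knockout library 4. Summed peaks then differed by −5 to 3.67 and members called at an end by 0.333 to 1.33. The unknown depth limits what an uncalled locus shows.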

Other observations

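The Fut9 locus, which holds the gene of the enzyme that makes CD15, the sugar used for the sort, had peaks in every library: 2, 2 and 1 in wild-type and 4, 2, 2 and 3 in knockout. The means were 1.67 ± 0.577 and 2.75 ± 0.957 (SD, n = 3 and 4, exact permutation p = 0.286, adjusted p = 1).

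The loci with peaks per library most like those of Maml2, by the summed absolute difference over the 7 libraries, were Gm13287 and Gm13288 at a distance of 3, followed by Ifna7, Ifna11 and Lrmda, tied at 5. The first 4 are neighbours on chromosome 4 whose windows share peaks, so that they stand for 1 place in the genome. Lrmda, a gene of 1036590 bp on chromosome 14, had 3, 5 and 2 peaks in wild-type and 3, 4, 3 and 9 in knockout libraries.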
